A study of Homo sapiens with 44 samples.

Results

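The 46 genes described here carry out DNA replication and prepare the cell for S phase, the stage of the cell cycle in which the genome is copied. They form a list of named genes, chosen with earlier results of these data known, and cover 8 roles: origin recognition and licensing (11 genes), helicase activation (6), polymerases with primase, clamp and clamp loader (13), Okazaki fragment joining (2), deoxynucleotide supply (4), E2F transcription factors (4), histone supply and chromatin assembly (3), and fork protection, checkpoint and CDT1 turnover (3). All 46 were present among the 58735 genes of the count table and among the 27315 gene symbols of the variance-stabilised table, and all 46 passed the filter on low values in both. The study asked how the histone methyltransferase EZH2 and the NF-kB subunits RelA and RelB shape transcription in triple-negative breast cancer cells. Of its 44 libraries, the 14 RNA libraries were used here, in 7 groups of 2. In the first experiment MDA-MB-231 cells, an established triple-negative line, received control siRNA, siRNA against RelA or siRNA against RelB. In the second, MDA-MB-231 and SUM149, an established line from an inflammatory breast cancer, each received control siRNA or siRNA against EZH2. The labels give no genetic change beyond the siRNA, which was used at 20 nM with harvest at 48 hours unless stated otherwise, and the 2 libraries of a group are described as biological duplicates. The p-values measure the spread between such duplicates, in these 2 lines, after partial and transient knockdown.

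Replication begins at origins, where the origin recognition complex, CDC6 and CDT1 load the MCM2 to MCM7 helicase ring during G1, and geminin (GMNN) blocks further loading afterwards. CDC45 and the GINS complex join the ring to form the active helicase, with MCM10 assisting. Polymerase alpha with primase starts each DNA strand, RFC loads the PCNA clamp, polymerases epsilon and delta extend the strands, and FEN1 and LIG1 process and seal Okazaki fragments. Many of these genes are transcribed under E2F factors at the G1/S transition, with E2F1 and E2F2 as activators and E2F7 and E2F8 as repressors. EZH2 is itself known as an E2F target in proliferating cells, and the replication genes are widely used as a proliferation signature in breast tumours.

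The E2F recognition sequence is what most of these promoters share, so the stretches around its matches are shown for members on which the results below turn. The 5 words searched on both strands were TTTCCCGC, TTTGGCGC, TTTCGCGC, TTCCCGCC and TTGGCGCC, which overlap one another. The search covered RefSeq windows of GRCh38.p14 from 250 bases before to 50 bases after the start of each gene. A window was given for 41 of the 46 members, and 28 of these (68.3%) held at least 1 E2F word. Of all 27305 genes with a window 6.87% did. The share was 11.3% of the 11246 such genes that were also tested in the RelA and RelB experiment. These 11246 are the tested genes of the other word counts in this paragraph. Each stretch reads 5′ to 3′ along the gene's own strand, with every base of a matched word in capitals, and ends at most 30 bases past the start site.
MCM3, chr6:52284719-52284936, minus strand: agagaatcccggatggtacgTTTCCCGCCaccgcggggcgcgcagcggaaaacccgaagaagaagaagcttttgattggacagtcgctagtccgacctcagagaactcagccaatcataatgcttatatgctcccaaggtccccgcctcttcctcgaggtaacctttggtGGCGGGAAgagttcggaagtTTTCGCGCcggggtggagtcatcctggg
MCM6, chr2:135876502-135876615, minus strand: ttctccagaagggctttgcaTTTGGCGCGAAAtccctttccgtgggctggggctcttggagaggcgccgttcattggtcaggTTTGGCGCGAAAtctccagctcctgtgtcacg
MCM2, chr3:127598393-127598440, plus strand: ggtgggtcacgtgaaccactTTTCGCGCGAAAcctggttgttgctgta
CDC6, chr17:40287866-40287908, plus strand: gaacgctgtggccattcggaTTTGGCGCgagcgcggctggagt
POLA1, chrX:24693760-24693808, plus strand: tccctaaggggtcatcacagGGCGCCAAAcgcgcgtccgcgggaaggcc
RFC3, chr13:33818074-33818121, plus strand: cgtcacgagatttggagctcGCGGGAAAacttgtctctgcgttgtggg
TIPIN, chr15:66356720-66356771, minus strand: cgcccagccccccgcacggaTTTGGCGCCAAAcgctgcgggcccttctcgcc
E2F1, chr20:33686378-33686425, minus strand: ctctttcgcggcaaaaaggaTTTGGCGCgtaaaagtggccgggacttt
E2F2, chr1:23531248-23531295, minus strand: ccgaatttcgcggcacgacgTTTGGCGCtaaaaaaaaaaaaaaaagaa
GINS1, chr20:25407657-25407702, plus strand: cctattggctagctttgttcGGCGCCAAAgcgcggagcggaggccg
PCNA, chr20:5126654-5126702, minus strand: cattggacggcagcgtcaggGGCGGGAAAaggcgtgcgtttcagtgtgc
The first 9 belong to genes that fell after EZH2 knockdown in MDA-MB-231, and the last 2 (GINS1 and PCNA) to the genes that rose there, so that both directions occurred among promoters that hold the word. The CCAAT word occurred in 25 of the 41 windows (61.0%), against 42.6% of tested genes. The CHR word TTTGAA, known from promoters of mitotic genes, occurred only in the RRM1 window of the 41, against 13.7% of tested genes. An NF-kB word occurred in none of the 41 windows, against 0.774% of tested genes. A match describes these letters only, and no match says nothing about binding.

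The count libraries held 18599848 to 24431753 counts, and every member had at least 176 counts in each library of the first experiment. RELA, RELB and EZH2 matched their labels. RELA was counted 3562 and 3391 times with control siRNA, and knockdown left 265 and 275 counts. RELB was counted 923 and 916 times in the controls, 90 and 107 times under siRelB, and 377 and 295 times under siRelA, so that the siRelA libraries were also low in RELB. EZH2 had 3022 and 3020 normalised counts in control MDA-MB-231 cells against 368 and 298 after its knockdown, and 2563 and 2746 against 442 and 517 in SUM149. RELB also fell under siEZH2 in both lines. ESR1 and PGR were at or near 0 in both lines. ERBB2, listed as low for MDA-MB-231, was present there (1613 and 1793 normalised counts in the controls, against 350 and 348 in SUM149), which goes against that list. VIM and CD44, listed as high for MDA-MB-231, were high in both lines. VIM was higher in the SUM149 controls (62193 and 64843 against 35174.5 and 33519), and CD44 was lower there (6778 and 7095 against 9624 and 9645). KRT5, a basal keratin, was present in SUM149 (1015 and 1027 normalised counts in the controls) and listed at 0 in the MDA-MB-231 controls. Of the markers listed as high for SUM149, EPCAM, KRT5 and KRT17 (248 and 250 in its controls) were present. The other 2 were not high: CDH1 was low (116 and 102 in its controls) and KRT14 near 0. Both of these values go against the line's listed profile, so SUM149 stands here for the libraries labelled so. Among markers of blood cells PTPRC, CD3E and ITGAM were at or near 0, while CD68 was present in the EZH2 experiment and higher under siEZH2 (1424 and 1707 normalised counts against 3266 and 3331 in MDA-MB-231, and 1980 and 2427 against 5386 and 5004 in SUM149). In the first experiment, also on MDA-MB-231, CD68 had 0 and 5 counts in the controls and at most 9 in any library. The cause of this gap between the experiments was not tested. The 5 fibroblast markers summed to 229.5 to 262.8 normalised counts in MDA-MB-231, and in SUM149 to 2207 and 2344 with control siRNA against 4865 and 4623 with siEZH2, nearly all of it DCN. EPCAM fell under siEZH2 in both lines, from 1410 and 1297 to 518 and 556 in MDA-MB-231 and from 1594 and 1460 to 175 and 166 in SUM149. The 3 endothelial markers summed to at most 38.6 in any library of that experiment. The part of these markers in the results on EZH2 was not tested.

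In MDA-MB-231, RelA knockdown lowered more of the replication genes than it raised. Of 46 members, 13 fell and 4 rose at an adjusted p under 0.05 (edgeR's quasi-likelihood test with Benjamini-Hochberg adjustment over 15930 genes), against 10.2% of all genes tested that fell and 8.82% that rose. By role, 54.5% of the licensing, 33.3% of the helicase activation and 15.4% of the polymerase group genes were called in either direction, against 19% of all genes tested. The other roles hold 2 to 4 genes each. The median log2 change over the members was -0.22, against 0.02 over all genes. The changes were small: the members' quartiles were -0.30 and -0.02. Together the 46 genes took 0.479% and 0.471% of all counts in the controls and 0.433% and 0.450% under siRelA. Fewer cells in S phase and less RNA per cell cannot be told apart in such bulk samples. With fewer libraries the count shrank, to 5 fallen members without control replicate 1, 8 without control replicate 2 and 8 without siRelA replicate 1; the risen members were 2 in each of these cases. DTL, E2F2, E2F7, FEN1, MCM2 and RRM2 were called under all 5 alternative settings and without each of the 6 libraries in turn.

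**Figure D1:**
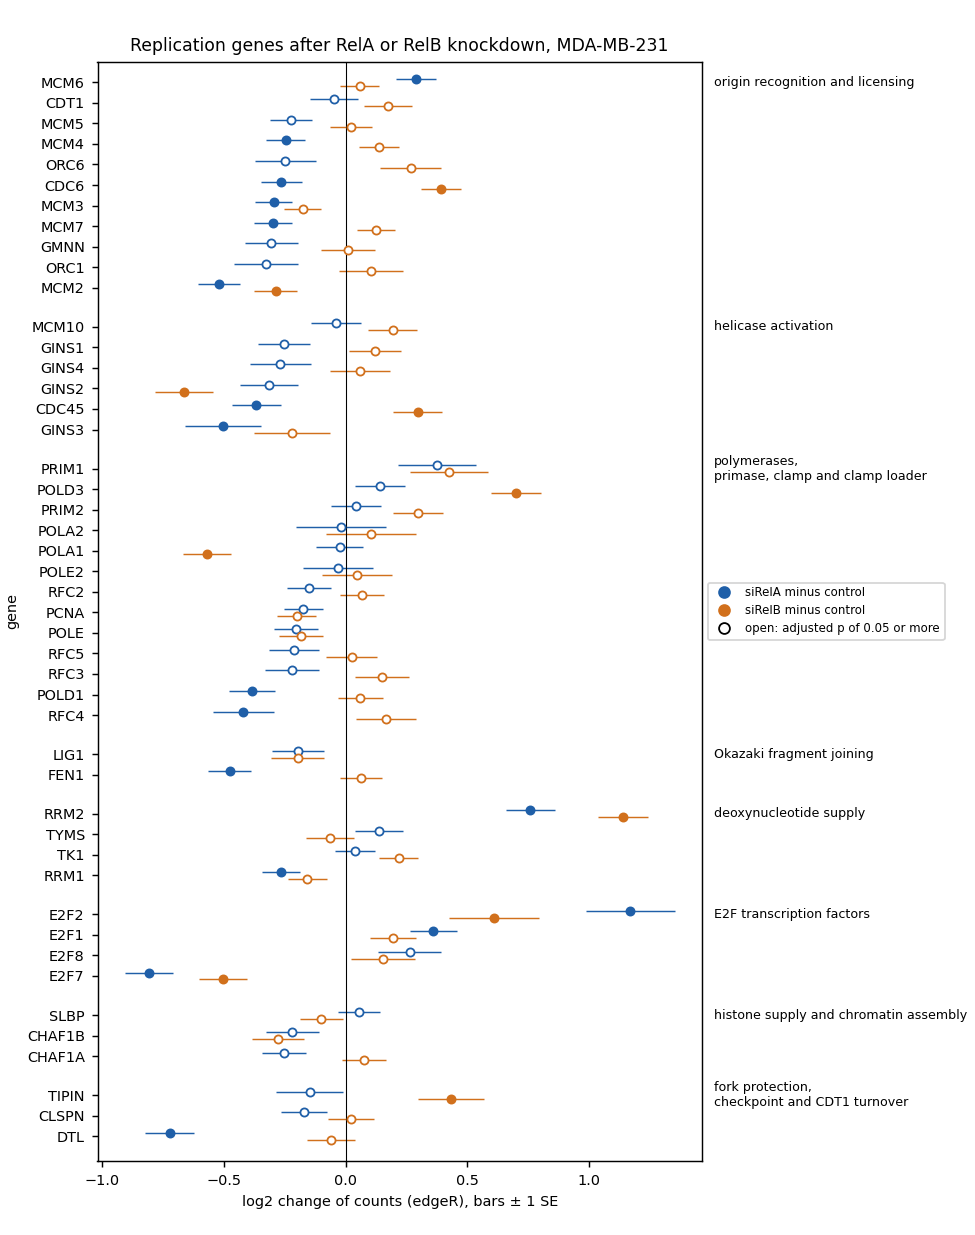
Log2 change of each of the 46 genes after RelA (blue) or RelB (orange) knockdown in MDA-MB-231, grouped by role, with bars of 1 standard error; filled points passed an adjusted p under 0.05. Most blue points lie left of 0 in the licensing, helicase and clamp loader groups, and E2F2 and RRM2 lie right of 0 in both colours.

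Among licensing genes 5 of 11 fell under siRelA and 1 rose. MCM2, a subunit of the helicase ring, was at 108 and 109 CPM (counts scaled to library size after TMM normalisation) in the controls and at 75.5 and 75.3 under siRelA, a log2 change of -0.52 ± 0.09 (SE; adjusted p = 0.00045). Its groups did not overlap, and 23.6% of its exon bases are shared with a long noncoding RNA on the opposite strand, which the counts may not separate since no strand setting is given. MCM3, MCM7, MCM4 and the loader CDC6 fell by less, with log2 changes from -0.30 to -0.25. MCM6, another subunit of the same ring, went the other way, from 140 CPM in both controls to 175 and 167 (0.29 ± 0.08, adjusted p = 0.019). The CPM of MCM2 to MCM7 summed to 1493 and 1443 in the controls and to 1252 and 1254 under siRelA.

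In the helicase activation group 2 of 6 fell. GINS3, a subunit of the GINS complex, went from 16.7 and 17.6 CPM to 12.6 and 11.6 (-0.50 ± 0.16, adjusted p = 0.032). CDC45, which joins the ring along with GINS, went from 57.1 and 54.5 CPM to 42.3 and 44.2 (-0.37 ± 0.10, adjusted p = 0.016). Both siRelA libraries lay below both controls for each gene. The call on GINS3 was lost with DESeq2, and both calls were lost without either control library or without siRelA replicate 1.

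Of the 13 polymerase, primase, clamp and loader genes, RFC4 and POLD1 fell (15.4%), near the 10.2% of all genes tested that fell. RFC4, a clamp loader subunit, was at 67.5 and 60.8 CPM in the controls and 42.2 and 53.8 under siRelA (-0.42 ± 0.12, adjusted p = 0.025). POLD1, the catalytic subunit of polymerase delta, was at 103 CPM in both controls and at 74.1 and 83.3 under siRelA (-0.38 ± 0.09, adjusted p = 0.0079). FEN1, the flap endonuclease of Okazaki fragments, went from 197 and 181 CPM to 132 and 140 (-0.48 ± 0.09, adjusted p = 0.00099). For these genes the siRelA and control libraries did not overlap, and for RFC4 the siRelA duplicates differed from each other by more than the upper one differed from the lower control. DTL, the substrate receptor that directs CDT1 to degradation in S phase, was at 108 and 119 CPM in the controls and 74.6 and 62.9 under siRelA, 1.65-fold lower (-0.72 ± 0.10, adjusted p = 7.3e-05).

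The E2F factors did not move together. E2F7, a repressor, went from 148 and 180 CPM to 90.8 and 96.4 under siRelA (-0.81 ± 0.10, adjusted p = 2.1e-05). E2F2, an activator at low level here, went from 8.28 and 7.77 CPM to 20.6 and 15.4, 2.25-fold higher (1.17 ± 0.18, adjusted p = 0.00021). E2F1, the other activator, went from 111 and 105 CPM to 140 and 137 (0.36 ± 0.10, adjusted p = 0.013). The 2 subunits of ribonucleotide reductase, which makes deoxynucleotides, went opposite ways. RRM2, its small subunit, was at 99.1 and 77.8 CPM in the controls and 148 and 151 under siRelA (0.76 ± 0.10, adjusted p = 5.5e-05). RRM1, its large subunit, changed by -0.27 ± 0.08 (adjusted p = 0.027). RRM2 has 3 annotated pseudogenes, so part of its reads may be counted elsewhere or not at all.

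RelB knockdown gave no such lean toward lower values. Of 46 members 6 rose and 4 fell in the same fit, against 7.45% of all genes tested that rose and 10.8% that fell, and the members' median log2 change was 0.07 against 0.01 over all genes. The members took 0.502% and 0.516% of all counts. Leaving out control replicate 2 left 2 risen members, and leaving out control replicate 1 or siRelB replicate 2 left 3. E2F7, GINS2, POLA1, POLD3 and RRM2 were called under every setting and without each library in turn.

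RRM2 rose most, to 195 CPM in both siRelB libraries, 2.21-fold above the controls (1.14 ± 0.10, adjusted p = 9.4e-07). POLD3, an accessory subunit of polymerase delta, went from 43.8 CPM in both controls to 74.0 and 68.2 (0.70 ± 0.10, adjusted p = 0.00014). RRM2 and POLD3 were also among the 3 members whose 3′ UTR holds the word GACTAAA. The other, ORC6, was called in neither knockdown against control and stood at 0.84 of its control mean under siRelA. POLD3 was not called under siRelA. The word was picked because genes that hold it were shifted upward in these same data, so it is a description only. It is shown in capitals for the 2 members that rose under siRelB.
RRM2: ttcactaagtGACTAAAgtaagttaaa
POLD3: gttttggttgGACTAAAggctgaagtg
The 1170 tested genes with the word in the 3′ UTR of their canonical GENCODE transcript had a median log2 change of 0.12 under siRelA and 0.04 under siRelB, against 0.00 in both for the 11616 genes without it. The siRNA sequences are not given in the labels, and the part of the word in the rise of these genes was not tested. Another word, GCCTAGT, went with lower values under siRelA (median -0.20 over 729 genes, against 0.02 over the 12057 genes without it). Under siRelB these medians were -0.07 and 0.01. No member holds GCCTAGT, and it too is a description only, whose part was not tested.

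E2F2 was at 11.7 and 12.7 CPM under siRelB (0.61 ± 0.18, adjusted p = 0.030), between its controls and its siRelA libraries, and this call was lost with DESeq2. TIPIN, a partner of TIMELESS that protects stalled forks, went from 23.9 and 23.8 CPM to 31.7 and 32.7 (0.43 ± 0.14, adjusted p = 0.035). Of TIPIN's exon bases 21.1% are shared with a processed pseudogene on the same strand, so its level is uncertain. CDC6, which loads the helicase ring, rose from 135 and 130 CPM to 173 and 174 (0.39 ± 0.08, adjusted p = 0.0031). CDC45 stood at 69.8 and 67.1 CPM (0.29 ± 0.10, adjusted p = 0.048), a call that was lost in 4 of 5 other settings.

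GINS2 fell most under siRelB, from 49.7 and 46.4 CPM to 27.6 and 33.1 (-0.66 ± 0.12, adjusted p = 0.00089). POLA1, the catalytic subunit of the polymerase that starts each strand, went from 69.7 and 76.9 CPM to 48.6 and 50.0 (-0.57 ± 0.10, adjusted p = 0.00061), while under siRelA it stayed among the controls at 72.5 and 71.6. E2F7 was at 117 and 114 CPM (-0.50 ± 0.10, adjusted p = 0.0018) and MCM2 at 89.2 and 88.1 (-0.29 ± 0.09, adjusted p = 0.029). For these 4 genes both siRelB libraries lay below both controls.

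**Figure D2:**
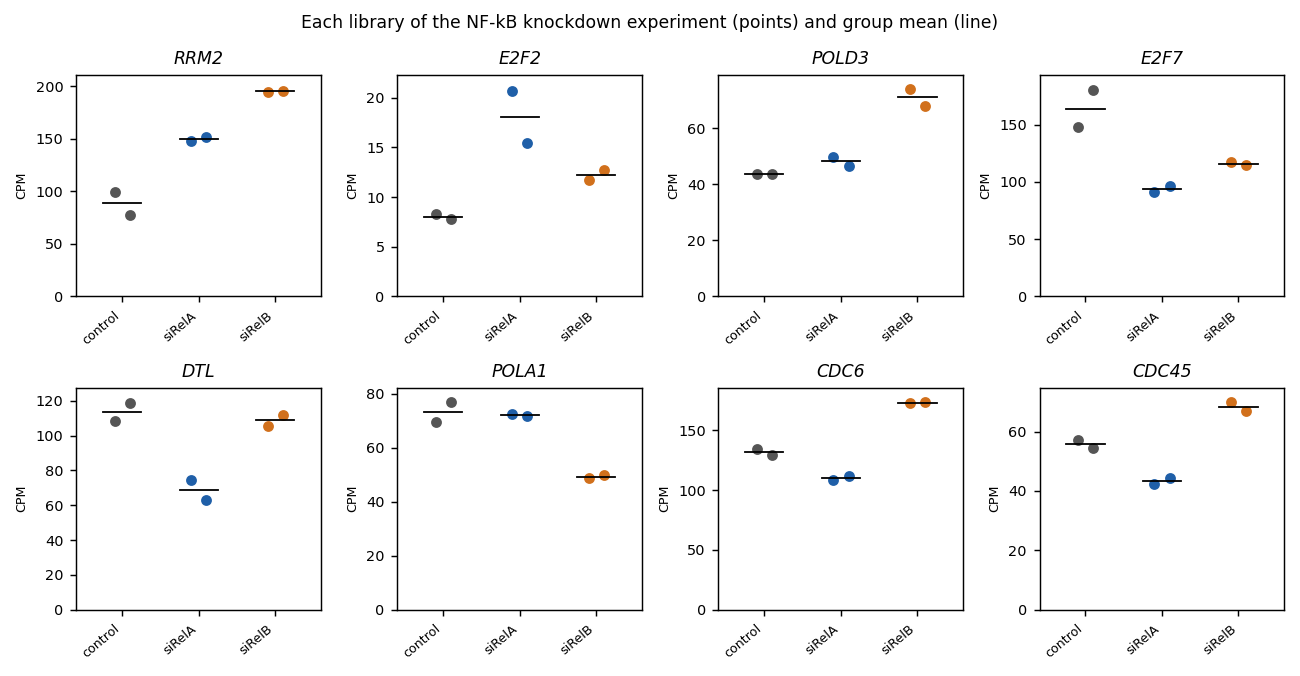
CPM of 8 replication genes in each of the 6 libraries of the NF-kB experiment (points) with group means (lines) and axes from 0. RRM2 and E2F2 are lowest in the controls, E2F7 is highest there, and CDC6 and CDC45 are lowest under siRelA and highest under siRelB.

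The siRelA and siRelB comparisons share the 2 control libraries, so the direct contrast of the knockdowns, which does not use them in the difference, was fitted as well. Relative to siRelB, 19 of 46 members were lower under siRelA and 4 were higher, against 14% of all genes tested that were lower and 16% that were higher, with a median of -0.23. Leaving out siRelA replicate 1 reduced the lower members to 12. The higher members were E2F2, POLA1, GINS2 and MCM6, and their number ranged from 1 to 3 when a library was left out; the call on MCM6 was lost in 4 of 5 other settings. CDC6 and CDC45 were the members called in opposite directions by the separate comparisons, and the direct contrast was -0.65 ± 0.08 for CDC6 (adjusted p = 1.7e-05) and -0.66 ± 0.10 for CDC45 (adjusted p = 0.0001). Among the other members lower under siRelA, DTL (-0.66), RFC4 (-0.58), TIPIN (-0.58), POLD3 (-0.56), FEN1 (-0.54) and ORC6 (-0.51) had the largest log2 differences. ORC6, the smallest origin recognition subunit, was at 37.4 and 36.5 CPM with control siRNA, 27.3 and 35.0 with siRelA, and 44.8 and 44.2 with siRelB, and of the 3 contrasts in this experiment it passed the test in the direct one (adjusted p = 0.0054). By role, 7 of 11 licensing genes, 2 of 6 helicase activation genes and 4 of 13 polymerase group genes were lower under siRelA than under siRelB.

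After EZH2 knockdown replication genes fell in both lines, and they fell more often than they rose. In MDA-MB-231, 29 of 46 members fell and 2 rose (limma with a variance trend on the deposited log2-like variance-stabilised values, adjusted over 12356 genes), against 27.1% of all genes tested that fell and 29.4% that rose. The members' median change was -0.24 against 0.00 over all genes. In SUM149, 20 fell and 4 rose, against 28.6% that fell and 29.4% that rose, with a median of -0.08. From the recovered normalised counts, the 46 genes made up 0.585% and 0.579% of the total in control MDA-MB-231 libraries, falling to 0.462% and 0.463% with siEZH2, and 0.731% in both SUM149 controls and 0.691% and 0.687% under siEZH2. The share called in either direction was 67.4% of the members in MDA-MB-231 and 52.2% in SUM149, against 56.6% and 58% of all genes tested. In both lines 18 members fell and 2 rose, and no member was called in opposite directions. The same overlap was not counted over all genes, so it is not read as particular to these members. All 31 calls in MDA-MB-231 held under 6 alternative settings, and 27 of them also without each of 8 libraries in turn. In SUM149, 18 of 24 calls held under the settings and 13 also without each library; leaving out SUM149 siEZH2 replicate 2 left 13 fallen members, and leaving out either siEZH2 library left 2 risen ones.

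**Figure D3:**
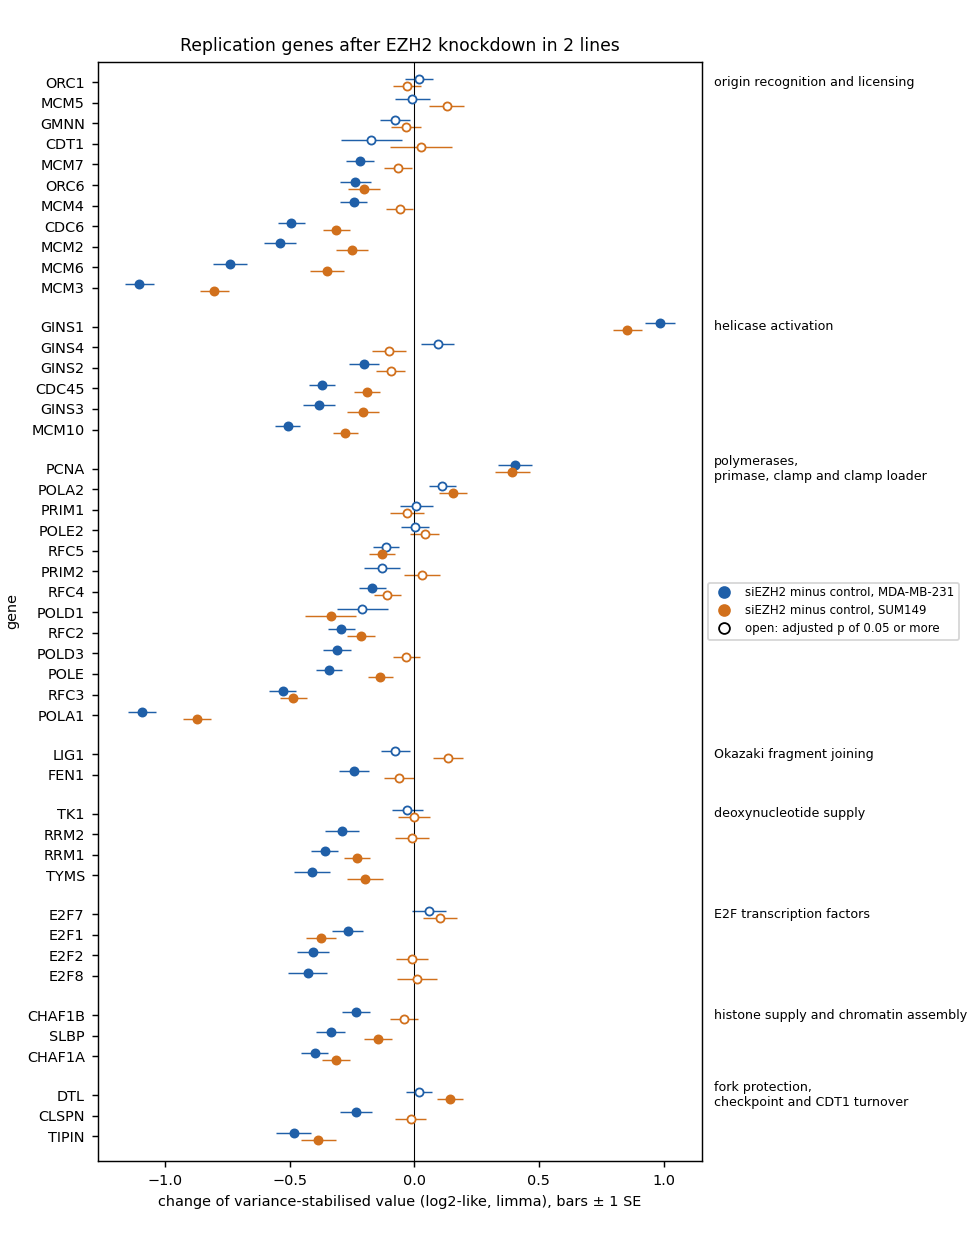
Change of the variance-stabilised value of each of the 46 genes after EZH2 knockdown in MDA-MB-231 (blue) and SUM149 (orange), by role, with bars of 1 standard error; filled points passed an adjusted p under 0.05. MCM3 and POLA1 lie farthest left and GINS1 farthest right in both lines.

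The licensing genes fell in 7 of 11 cases in MDA-MB-231 and 5 of 11 in SUM149, but the subunits of the MCM ring moved by very different amounts. MCM3 dropped from 13147 and 13697 normalised counts to 6053 and 6152 in MDA-MB-231, 2.20-fold lower (-1.10 ± 0.06, adjusted p = 5.1e-09). In SUM149 it went from 10640 and 11794 to 6349 and 6264, 1.78-fold lower (-0.80 ± 0.06, adjusted p = 1.1e-07). The groups lay far apart in both lines. MCM6 went from 3274 and 3258 to 1887 and 1820 in MDA-MB-231 (-0.74 ± 0.07, adjusted p = 1.1e-06) and from 3370 and 3414 to 2857 and 2371 in SUM149 (-0.35 ± 0.07, adjusted p = 0.00067). MCM2 went from 5730 and 5838 to 3652 and 4160 (-0.54 ± 0.06, adjusted p = 1.0e-05), and in SUM149 from 8872 and 8495 to 7544 and 6970 (-0.25 ± 0.06, adjusted p = 0.0043). MCM5 showed no call in either line, with 2698 and 2751 normalised counts against 2487 and 2945 in MDA-MB-231 and changes of -0.01 ± 0.07 and 0.13 ± 0.07. MCM4 and MCM7 fell in MDA-MB-231 by 0.24 and 0.22 and were not called in SUM149 (-0.06 for each). Summed over MCM2 to MCM7, normalised counts went from 45046 and 45737 to 31143 and 32350 in MDA-MB-231 and from 64892 and 66378 to 58420 and 56212 in SUM149.

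CDC6 fell in both lines, from 6470 and 6343 to 4422 and 4522 normalised counts in MDA-MB-231 (-0.49 ± 0.05, adjusted p = 4.9e-06) and from 4056 and 4428 to 3309 and 3407 in SUM149 (-0.31 ± 0.05, adjusted p = 0.00025). ORC6 also fell in both (-0.24 and -0.20). The other licensing factors CDT1, ORC1 and GMNN passed the test in neither line, and their changes ran from -0.17 to 0.03.

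GINS1, a subunit of the GINS complex, was the member that rose most. It went from 701 and 710 normalised counts to 1623 and 1656 in MDA-MB-231, 2.32-fold higher (0.99 ± 0.06, adjusted p = 1.7e-08), and from 1179 and 1197 to 2238 and 2483 in SUM149, 1.99-fold higher (0.86 ± 0.06, adjusted p = 7.2e-08). Its partners did not follow. GINS3 fell in both lines (-0.38 and -0.21), GINS2 fell in MDA-MB-231 (-0.20), and GINS4 was called in neither (0.09 ± 0.07 and -0.10 ± 0.07). MCM10 went from 4132 and 4048 to 2806 and 2785 in MDA-MB-231 (-0.51 ± 0.05, adjusted p = 1.5e-06) and from 5353 and 5515 to 4387 and 4495 in SUM149 (-0.28 ± 0.05, adjusted p = 0.00031), and CDC45 fell in both (-0.37 and -0.19).

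POLA1 was the polymerase gene that fell most. It went from 3892 and 3526 normalised counts to 1557 and 1639 in MDA-MB-231, 2.32-fold lower (-1.09 ± 0.06, adjusted p = 5.1e-09), and from 2555 and 2624 to 1292 and 1305 in SUM149, 1.99-fold lower (-0.87 ± 0.06, adjusted p = 5.1e-08). The other parts of the polymerase alpha and primase complex were not called lower in either line. POLA2 changed by 0.11 ± 0.06 in MDA-MB-231 and rose in SUM149 from 2854 and 3130 to 3332 and 3388 (0.16 ± 0.06, adjusted p = 0.028), and PRIM1 and PRIM2 were called in neither line. PRIM2 changed by -0.13 ± 0.07 in MDA-MB-231, where both siEZH2 libraries lay below both controls, and by 0.03 ± 0.07 in SUM149, and the changes of PRIM1 were 0.01 ± 0.07 and -0.03 ± 0.07. The rise of POLA2 in SUM149 was lost when libraries were centred on their medians, and 16.8% of its exon bases are shared with another annotated gene on the same strand.

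RFC3, a clamp loader subunit, went from 2131 and 2099 to 1452 and 1326 in MDA-MB-231 (-0.53 ± 0.05, adjusted p = 2.6e-06) and from 4942 and 4994 to 3411 and 3532 in SUM149 (-0.49 ± 0.05, adjusted p = 5.4e-06). PCNA, the clamp that RFC loads, went the other way, from 3766 and 3476 to 4544 and 5240 (0.41 ± 0.07, adjusted p = 0.00022) and from 5875 and 5746 to 7408 and 8045 in SUM149 (0.39 ± 0.07, adjusted p = 0.00027). Every siEZH2 library lay above the controls of its line for PCNA, a gene with 3 annotated pseudogenes. RFC2 and POLE also fell in both lines, RFC4 and POLD3 in MDA-MB-231, and RFC5 and POLD1 in SUM149. In SUM149 the call on RFC5 was lost in 5 of 6 other settings and that on POLE in 3 of 6. POLD1 in SUM149 went from 2668 and 2024 to 1847 and 1735 (-0.33 ± 0.10, adjusted p = 0.013), with controls that differed widely from each other.

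TIPIN went from 1053 and 910 to 594 and 672 in MDA-MB-231 (-0.48 ± 0.07, adjusted p = 6.4e-05) and from 1192 and 1132 to 843 and 820 in SUM149 (-0.39 ± 0.07, adjusted p = 0.00041). CLSPN, the adaptor that relays the ATR checkpoint signal to CHEK1, fell in MDA-MB-231 (-0.23), and DTL rose by 0.14 ± 0.05 in SUM149, from 3486 and 3714 to 3974 and 4028 (adjusted p = 0.031), a call lost when libraries were centred on their medians. All 3 genes of histone supply and chromatin assembly fell in MDA-MB-231: CHAF1A, the large subunit of the CAF-1 chaperone (-0.40), SLBP, which binds histone mRNA (-0.34), and CHAF1B (-0.23). CHAF1A (-0.31) and SLBP (-0.14) also fell in SUM149, where the call on SLBP was lost in 4 of 6 other settings. Among the deoxynucleotide genes TYMS, which makes thymidylate, and RRM1 fell in both lines, RRM2 fell in MDA-MB-231 (-0.29), and TK1 was called in neither. The call on TYMS in SUM149 was lost without the filter on low values. TYMS shares 39.9% of its exon bases with ENOSF1 on the opposite strand.

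Of the E2F factors, E2F1 fell in both lines, from 3129 and 3314 to 2474 and 2795 in MDA-MB-231 (-0.27 ± 0.06, adjusted p = 0.0020) and from 2812 and 2851 to 2171 and 2077 in SUM149 (-0.37 ± 0.06, adjusted p = 0.00015). E2F2 and E2F8 fell in MDA-MB-231 and were not called in SUM149, and E2F7 was called in neither line. Among the members with a promoter window, 19 of 28 with an E2F word fell in MDA-MB-231 (median -0.28), and 7 of 13 without it fell (median -0.23). In SUM149 these counts were 14 of 28 (median -0.12) and 6 of 13 (median -0.06).

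**Figure D4:**
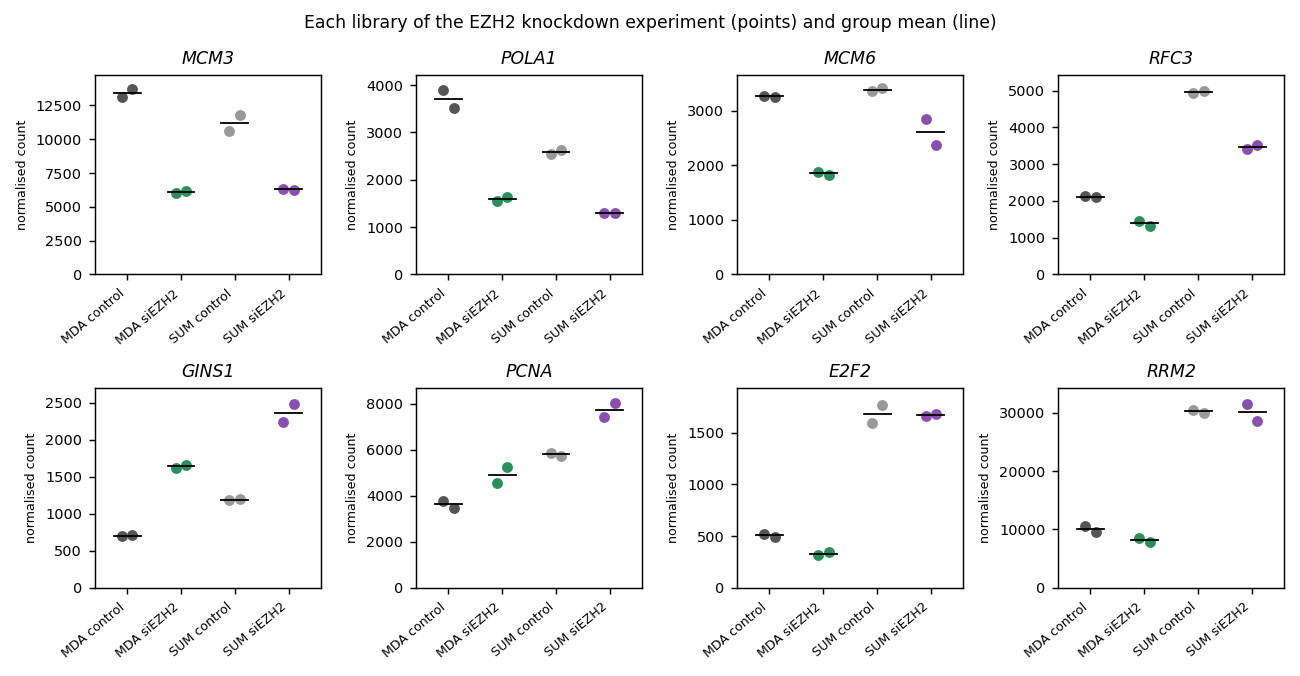
Normalised counts recovered from the variance-stabilised values for 8 replication genes in each of the 8 libraries of the EZH2 experiment (points) with group means (lines) and axes from 0; MDA stands for MDA-MB-231 and SUM for SUM149. MCM3, POLA1, MCM6 and RFC3 are lower and GINS1 and PCNA higher under siEZH2 in both lines, and E2F2 is lower under siEZH2 in MDA-MB-231, from 524 and 495 to 317 and 345.

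The difference between the lines was tested as an interaction term. Of 46 members, 7 had a higher siEZH2 effect in SUM149 than in MDA-MB-231, against 11.2% of all genes tested, and 0 had a lower one, against 10.4%. In SUM149 the effect on these 7 was less negative or, for E2F8, slightly above 0. At an unadjusted p under 0.05 the limma counts were 18 higher and 0 lower, and edgeR on the recovered normalised counts also called 0 lower. The median difference over the members was 0.15, and 38 of 46 were above 0. E2F8, a repressor, went from 1307 and 1211 normalised counts to 940 and 807 in MDA-MB-231 and from 950 and 1145 to 1043 and 1063 in SUM149 (difference 0.44 ± 0.11, adjusted p = 0.013). E2F2 went from 524 and 495 to 317 and 345 in MDA-MB-231 and from 1596 and 1768 to 1658 and 1677 in SUM149 (difference 0.40 ± 0.09, adjusted p = 0.0069). For both genes the groups were apart in MDA-MB-231 and overlapped in SUM149. The differences were 0.39 ± 0.10 for MCM6 (adjusted p = 0.012), 0.30 ± 0.08 for MCM3 (adjusted p = 0.019), 0.29 ± 0.09 for MCM2 (adjusted p = 0.038) and 0.23 ± 0.07 for MCM10 (adjusted p = 0.029), genes that fell in both lines. POLD3 went from 1769 and 1723 to 1331 and 1386 in MDA-MB-231 and from 1736 and 1878 to 1747 and 1777 in SUM149 (difference 0.28 ± 0.08, adjusted p = 0.023). Only E2F2 among the 7 was called without each of the 8 libraries in turn, and 2 of them were left without either MDA-MB-231 control library and 3 without SUM149 siEZH2 replicate 1. Without MDA-MB-231 control replicate 2 a gene outside the 7 was also called, which made 3. EZH2 itself fell by less in SUM149 (5.54-fold against 9.08-fold in mean normalised count, difference 0.51 ± 0.10, adjusted p = 0.0035), and the part of that in these differences was not tested.

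Between the control libraries of the 2 lines 26 of 46 members were higher in SUM149 and 11 were lower, against 41.3% and 41.5% of all genes tested. The share called in either direction, 80.4% of the members, lay near the 82.8% of all genes tested. RRM2 stood at 30517 and 29923 normalised counts in SUM149 and 10558 and 9604 in MDA-MB-231, 3.00-fold higher (1.56 ± 0.07, adjusted p = 5.6e-11). GINS4 (3025 and 3228 against 1053 and 962, change 1.42) and E2F2 (change 1.35) followed. POLA2 was at 2854 and 3130 against 1024 and 1043 (1.33 ± 0.06). All 6 helicase activation genes were higher in SUM149.

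Of the licensing genes 7 of 11 were higher. CDT1 was at 2204 and 1458 in SUM149 against 627 and 548 (1.29 ± 0.12), with SUM149 controls that differed widely. MCM4 was at 19979 and 20517 against 8178 and 8161 (1.28 ± 0.06), and ORC1 at 3396 and 3558 against 1386 and 1487 (1.14 ± 0.06). RFC3 had the next largest difference (1.14 ± 0.05). In the other direction E2F7 was at 1618 and 1696 in SUM149 against 3718 and 3831, 2.28-fold lower (-1.07 ± 0.07, adjusted p = 3.4e-09). CDC6 (-0.57), CHAF1B (-0.54; 831 and 881 against 1362 and 1342) and POLA1 (-0.48) were lower by less, and FEN1 and GMNN (-0.28 each), PRIM2 (-0.26) and MCM3 (-0.25) completed the 8 largest decreases. These lines differ in origin and each is a single line, so a difference between them describes these lines.

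The siEZH2 and siRelA comparisons in MDA-MB-231 came from separate experiments with their own controls, and no test joined them. Of the 29 members that fell under siEZH2, 10 were also among the 13 that fell under siRelA: MCM2, MCM3, MCM4, MCM7, CDC6, CDC45, GINS3, RFC4, FEN1 and RRM1. That is 34.5% of the 29 and 76.9% of the 13, where 63% of all 46 members fell under siEZH2. Over the 11179 genes tested in both experiments, 43.8% of those that fell under siRelA also fell under siEZH2, where 27.8% of all of them did. MCM6, RRM2, E2F1 and E2F2 fell under siEZH2 and rose under siRelA, and these were all 4 of the members that rose there. Under siRelB, 3 of the 4 fallen members (MCM2, GINS2 and POLA1) were among those 29, and all 6 risen ones (CDC6, CDC45, POLD3, RRM2, E2F2 and TIPIN) were too, with the same 63% as the base. Over all genes tested in both, 25.9% of the fallen and 31.7% of the risen genes under siRelB fell under siEZH2, and 18.2% of those that rose under siRelA did. GINS1 and PCNA, which rose under siEZH2, were called in neither NF-kB knockdown. POLA1 stood at -1.09 under siEZH2, -0.57 under siRelB and -0.02 under siRelA.

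**Figure D5:**
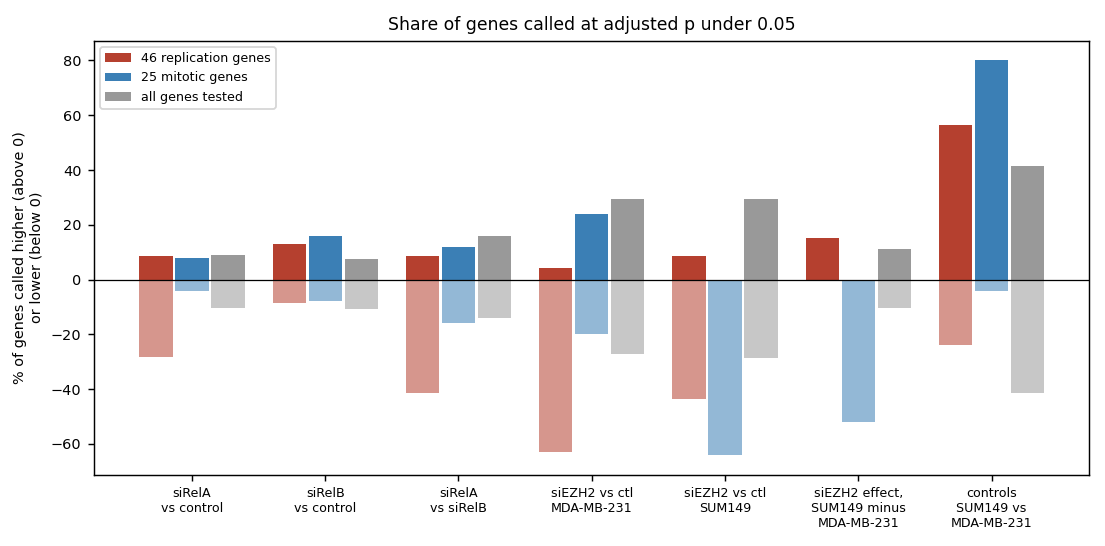
Percent of genes called higher (above 0) and lower (below 0) at an adjusted p under 0.05 in the 7 comparisons, for the 46 replication genes, 25 mitotic genes and all genes tested. The replication genes reach furthest below 0 after EZH2 knockdown in MDA-MB-231 (29 of 46) and the mitotic genes after EZH2 knockdown in SUM149 (16 of 25).

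A list of 25 mitotic genes, which serve chromosome segregation and division, was counted for comparison. Under siEZH2 in MDA-MB-231, 5 of the 25 fell and 6 rose, with a median of 0.05, against 27.1% of all genes tested that fell and 29.4% that rose, so fewer of them were called than of all genes (44% against 56.6%). BIRC5 (-0.69), FOXM1 (-0.39) and MKI67 (-0.31) fell, and KIF20A (0.57), NUF2 (0.38) and BUB1 (0.28) rose. In SUM149, 16 of 25 fell (median -0.19), against 28.6% of all genes, among them BIRC5 (-0.85), CCNB1 (-0.44) and CENPA (-0.39). The interaction was lower in SUM149 for 13 of 25 (median -0.26), against 10.4% of all genes, a direction in which no replication gene was called. KIF20A (-0.47), MYBL2 (-0.43) and BUB1 (-0.39) had the largest such differences. Under siRelA 1 of 25 fell and 2 rose, with 19% of all genes called in either direction, and under siRelB 2 fell and 4 rose, with 18.3% called.

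The lists of related genes were counted in the same fits. Over all genes tested, 27.1% fell and 29.4% rose after EZH2 knockdown in MDA-MB-231, while in SUM149 28.6% fell and 29.4% rose. Under siRelA 10.2% fell and 8.82% rose, and under siRelB 10.8% fell and 7.45% rose. Of 25 other replication factors, 10 fell and 3 rose under siEZH2 in MDA-MB-231, 11 fell and 2 rose in SUM149, 3 fell and 3 rose under siRelA, and 2 fell and 3 rose under siRelB. The share called in either direction was 52% in each line after EZH2 knockdown, no more than the 56.6% and 58% of all genes. For the 46 members it was 67.4% in MDA-MB-231 and 52.2% in SUM149. The median change of these 25 was -0.11 in MDA-MB-231 and -0.14 in SUM149, against -0.24 and -0.08 for the members. The lean toward lower values in SUM149 was therefore not particular to the 46. RPA1, the large subunit of the single-strand binding protein, rose under siRelA (0.70) and siRelB (0.49), and POLE3, an accessory subunit of polymerase epsilon, rose under siRelB (1.05) and fell under siEZH2 in MDA-MB-231 (-0.55). POLD4, the smallest polymerase delta subunit, rose in both lines after EZH2 knockdown (0.57 for MDA-MB-231, 0.81 for SUM149). Of 8 other deoxynucleotide enzymes, 5 fell and 2 rose under siEZH2 in MDA-MB-231 and 4 fell and 1 rose in SUM149. RRM2B, an alternative small subunit of ribonucleotide reductase, rose in both (0.84 and 0.34). Under siRelA and under siRelB 2 of the 8 rose and 1 fell. Of 9 other E2F and pocket protein genes, 6 fell and 2 rose under siEZH2 in MDA-MB-231 and 5 fell and 2 rose in SUM149. E2F5 (-0.75 and -0.74) and TFDP1, a dimer partner of E2F factors (-0.50 and -0.41), fell in both. Under siRelA 2 of these 9 fell and 3 rose, with E2F4 lowest at -0.63, and under siRelB 3 fell and 3 rose, with E2F6 lowest at -0.76 and E2F5 highest at 0.91.

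Of 10 replication checkpoint genes, 4 fell and 3 rose under siEZH2 in MDA-MB-231 and 4 fell and 4 rose in SUM149, where 56.6% and 58% of all genes were called, split nearly evenly between the directions. CDC25A (-0.62 and -0.37) and CHEK1 (-0.46 and -0.40) fell in both, and WEE1, an inhibitory kinase of CDK1 and CDK2, rose in both (0.32 and 0.42). WEE1 also rose under siRelA (1.01) and siRelB (1.10), where it was the 1 gene of the 10 that rose in each case. Of 6 other histone chaperones and chromatin factors, 4 fell and 1 rose under siEZH2 in MDA-MB-231 and 2 fell and 1 rose in SUM149, and the risen gene in both was ASF1A (1.24 and 0.61), a chaperone that hands histones to CAF-1. Under siRelA 2 of the 6 fell and 1 rose, and under siRelB 1 fell and 2 rose.

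The 14 G1/S cyclins, kinases and regulators, which act upstream of replication, moved in both directions in each comparison. After EZH2 knockdown 85.7% of them were called in MDA-MB-231 and 64.3% in SUM149, against 56.6% and 58% of all genes tested. Under siRelA 57.1% were called and under siRelB 50%, against 19% and 18.3%. Under siEZH2 7 fell and 5 rose in MDA-MB-231 and 4 fell and 5 rose in SUM149. CCND1 (-1.10 and -0.48), CDK2 (-0.97 and -0.67) and CCNE1 (-0.75 and -0.41) fell in both. Under siRelA 4 fell and 4 rose, with CDK6 (-2.17) and CDK2 (-1.44) the largest falls and CCNE2 and SKP2 (0.67) the largest rises. Under siRelB 4 fell, among them CDKN2C (-0.97), and 3 rose, among them CCNE2 (1.36). There the changes of all 14 ran from -1.72 to 1.36.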

How the data were processed

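RNA was measured in 14 libraries, 2 per group. Raw gene counts were deposited for the RelA and RelB experiment; HISAT2 2.0.5, featureCounts 1.5.0-p3 and hg19 are named per the submitters' processing notes. Values deposited for the EZH2 experiment had been variance-stabilised by the authors, which gives a log2-like unit, with STAR 2.5.2b, Salmon, DESeq2 and hg19 named in the same notes; the scale compresses changes of low genes. The counting strand and the annotation release were not stated in the labels. The counts were fitted with edgeR 4.0.16 (TMM, filterByExpr, quasi-likelihood test, all 6 libraries, 15930 genes) and the log2-like values with limma 3.58.1 (variance trend, all 8 libraries, 12356 genes at least 1 above the table floor of 7.12 in at least 2 libraries), each with Benjamini-Hochberg adjustment over all genes tested and calls at adjusted p under 0.05. Normalised counts were recovered by inverting the transformation from its floor; single-read steps were recovered for only 64.5% to 76.6% of low values, so they serve as levels and not as reads. The library-wise fits leave 3 and 4 residual degrees of freedom. Counts were matched to symbols through Ensembl IDs (58207 of 58735). Full values are given for up to 8 called members with the largest rise and the largest fall in each comparison, and related genes are named only where called, up to 3 per list and direction. The members and the gene lists were chosen with earlier results of these data known. The fits were tested on simulated data. Alternatives were DESeq2 1.42.0, other size factors, filters, variance models and centring, edgeR on recovered normalised counts, fits of the compared groups alone, the replicate block and leaving out each library. The 30 chromatin libraries were not analysed here.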

Additional observations from a re-analysis of the deposited data

Results flagged for a closer look

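Among the replication genes 7 results were picked out because the siEZH2 effect differed between SUM149 and MDA-MB-231 by the interaction test. They are 15.2% of the 46 members, against 21.5% of all genes tested called in either direction and 11.2% called higher. The differences, as SUM149 minus MDA-MB-231 on the log2-like scale, were 0.44 for E2F8, 0.40 for E2F2, 0.39 for MCM6, 0.30 for MCM3, 0.29 for MCM2, 0.28 for POLD3 and 0.23 for MCM10. Each effect was higher in SUM149, where it was less negative or, for E2F8, slightly above 0. EZH2 itself fell by less in that line, and the part of that in these differences was not tested. Without each library in turn the difference ran from 0.33 to 0.46 for E2F2 and from 0.20 to 0.38 for MCM2, whose call was also lost without the filter on low values and without the variance trend.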

How the results depend on the processing

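No called member's change reversed its direction under any alternative run. Relative to siRelB, the members higher under siRelA numbered 4, and 2 with DESeq2 or with only the groups compared. In SUM149 the members raised by siEZH2 numbered 4, and 2 with libraries centred on their medians. Leaving out each library in turn gave 2 to 4 risen and 5 to 12 fallen members under siRelA, 2 to 6 risen under siRelB, 1 to 3 higher and 12 to 20 lower in the direct contrast, 2 to 4 risen and 13 to 20 fallen under siEZH2 in SUM149, and 2 to 7 higher for the interaction. Each such fit has 1 fewer library, and the lone library of its group is assumed to vary like the others. Over all genes, 728 were lower for the interaction with edgeR on recovered normalised counts against 1281 with limma; the cause was not tested. Same-numbered replicates did not deviate together (correlations from -0.21 to 0.09), so the numbers pair no samples. With a replicate block the fallen and risen members were 14 and 4 under siRelA, 4 and 5 under siRelB, 30 and 2 under siEZH2 in MDA-MB-231 and 17 and 4 in SUM149, 7 were higher for the interaction, and the direct contrast gave 18 lower and 3 higher. With 2 libraries per group small changes are not resolved: no call at a given size excludes a change within the printed standard errors.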
